A study of Mus musculus with 4 samples.

Results

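AP-1 is a family of transcription factors, and the mRNA levels of 10 of its genes were described in immortalized mouse macrophages with and without the kinase MK2. The genes were Fos, Fosb, Fosl1, Fosl2, Jun, Junb, Jund, Atf3, Batf and Maff, found by their symbols among the 55356 genes of the deposited RNA sequencing table. AP-1 proteins bind DNA as pairs that are held together by a leucine zipper. JUN proteins pair with each other or with FOS proteins, which cannot pair among themselves, and ATF3, BATF and small MAF proteins join the same network with other partners. In macrophages the family is known for its rapid and short-lived transcription after inflammatory stimuli, downstream of the MAP kinases ERK, JNK and p38.

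The cells were immortalized macrophages from MK2-KO mice, which lack the p38-activated kinase MK2 (gene Mapkapk2). They had been transduced with a retroviral vector, pMMP-IRES-GFP, that was either empty (iMK2-KO+GFP) or carried MK2 (iMK2-KO+MK2), and each line is 1 population sorted for GFP. The labels give the genotype of the rescued line as wt, but both lines descend from MK2-KO cells, and MK2 comes from the vector in the rescued line. Each line was left untreated (UT) or received recombinant murine IL-1α at 5 ng/mL for 1 h, a cytokine released by damaged cells. There was 1 library for each of the 4 conditions. A difference between conditions can therefore not be told apart from a difference between single cultures, and no test was possible.

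Values are normalized counts as deposited, rounded to whole numbers. Differences are log2 ratios after adding 1 to both values, with a 95% counting interval that covers counting error only. A gene is said to rise or fall where the ratio reached 2-fold and its mean over the 4 libraries was at least 10, which held for 12483 genes. Such values come from a mixture of all cells of a culture, in which fewer cells of a type and less RNA per cell cannot be told apart.

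The targeted gene Mapkapk2 was at 561 and 1585 in UT and IL-1α-treated iMK2-KO+GFP cells, against 38357 and 38141 in iMK2-KO+MK2 cells, the order that the labels imply. The values of a library summed to between 24891906 and 25733071, and 17840 to 18152 genes were above 0. All 10 macrophage markers examined were above 0 in every library, with summed normalized counts of 123787 to 138754. Of 14 markers of other cells, 10 were at 0 in all libraries, and the list summed to 29 and 26 in iMK2-KO+GFP cells (UT and IL-1α) and to 107 and 116 in iMK2-KO+MK2 cells. Most of that sum was Zbtb46, a dendritic cell transcription factor, at 23, 18, 104 and 115 in the same order.

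Of the 10 genes, 9 reached the minimum mean. Maff, Junb and Atf3 rose and Fos fell after IL-1α in iMK2-KO+GFP cells, whereas no member reached 2-fold in iMK2-KO+MK2 cells. Across all tested genes of iMK2-KO+GFP cells, 2.25% rose and 1.59% fell. The shares in iMK2-KO+MK2 cells were 0.889% and 1.03%. The median log2 ratio of the 9 members was 0.95 in iMK2-KO+GFP cells and 0.01 in iMK2-KO+MK2 cells, beside 0.01 over all tested genes in both lines. Between the UT lines, Fosl1 and Fosb were lower in iMK2-KO+GFP cells and no member was 2-fold higher, where 3.51% of all tested genes were higher and 5.26% lower. After IL-1α, Maff and Junb were higher, and Fosl1, Fosb and Fos lower, in iMK2-KO+GFP cells, with 4.16% of all tested genes higher and 5.57% lower. These 4 comparisons share libraries, so they are not independent of each other.

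**Figure D1:**
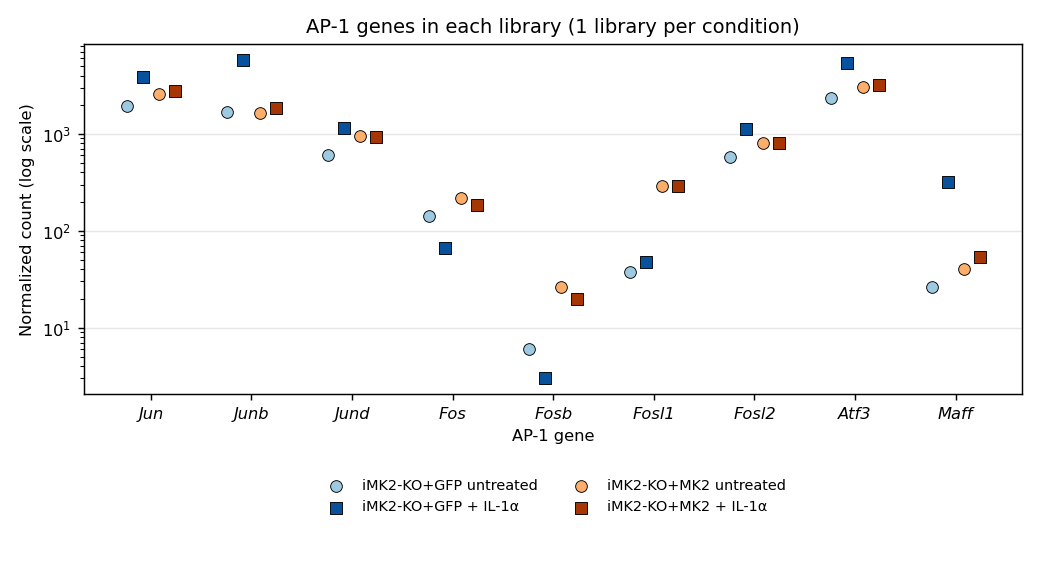
Normalized counts of the 9 AP-1 genes with a mean of at least 10, on a log scale, with 1 point for each of the 4 libraries. Junb, Atf3 and Maff were highest after IL-1α in iMK2-KO+GFP cells (dark squares at 5795, 5408 and 318), and Fosl1 was highest in both iMK2-KO+MK2 libraries (290 and 292).

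Members of the JUN subfamily can bind DNA as pairs of their own. Junb (ENSMUSG00000052837.8), a member that pairs with FOS proteins and can also hold back the activity of JUN, had normalized counts of 1685 and 5795 in UT and IL-1α-treated iMK2-KO+GFP cells. The iMK2-KO+MK2 cells had 1651 untreated and 1855 after IL-1α. The IL-1α-treated iMK2-KO+GFP library thus stood above the other 3, which lay close together. Junb rose by 1.78 on the log2 scale (counting interval 1.70 to 1.86), or 3.44-fold, in iMK2-KO+GFP cells, and ranked 100 from the top of 12483 genes. In iMK2-KO+MK2 cells the log2 ratio was 0.17 (0.07 to 0.26). The UT lines differed by 0.03 (-0.07 to 0.13), a sign that turned to -0.03 when libraries were scaled to Gapdh. After IL-1α, Junb was 3.12-fold higher in iMK2-KO+GFP cells (log2 1.64, 1.57 to 1.72).

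Jun (ENSMUSG00000052684.5) encodes the founding JUN protein, a strong activator whose activity is raised by JNK. Its normalized counts were 1948 and 3879 in UT and IL-1α-treated iMK2-KO+GFP cells, and 2558 and 2762 in iMK2-KO+MK2 cells. Its level was thus lowest in UT iMK2-KO+GFP cells and highest in the same cells after IL-1α. The log2 ratio of IL-1α against UT was 0.99 (0.91 to 1.07), or 1.99-fold, in iMK2-KO+GFP cells and 0.11 (0.03 to 0.19) in iMK2-KO+MK2 cells. Between the lines it was -0.39 (-0.48 to -0.31) untreated and 0.49 (0.42 to 0.56) after IL-1α.

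Jund (ENSMUSG00000071076.9), the JUN member that is known for steady expression in resting cells, was likewise lowest in UT and highest in IL-1α-treated iMK2-KO+GFP cells. It was at 599 and 1157 in UT and IL-1α-treated iMK2-KO+GFP cells, and at 954 and 925 in iMK2-KO+MK2 cells. The response was 0.95 (0.81 to 1.09) in iMK2-KO+GFP cells, just below 2-fold at 1.93-fold, and -0.04 (-0.18 to 0.09) in iMK2-KO+MK2 cells. Before treatment Jund was lower in iMK2-KO+GFP cells (-0.67, -0.82 to -0.52), and after it was higher (0.32, 0.20 to 0.45), in neither case by 2-fold. Genes that overlap the JUN members could share their reads, since strand use in counting is not given in the sources used here. The overlapping genes were Prdx2 for Junb, at 3406 to 4266 with its highest value in UT iMK2-KO+GFP cells, and Junos and Gm11175 for Jun and Jund, at 22 or less in every library.

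The FOS subfamily, which needs a partner to bind DNA, held members that differed in which libraries were high. Fos (ENSMUSG00000021250.14), the classic immediate-early gene, had normalized counts of 143 and 67 in UT and IL-1α-treated iMK2-KO+GFP cells, and of 218 and 185 in iMK2-KO+MK2 cells. Both iMK2-KO+GFP values were below both iMK2-KO+MK2 values, and the treated iMK2-KO+GFP library was the lowest. Fos fell by 1.08 on the log2 scale (counting interval -1.53 to -0.67), or 2.12-fold, in iMK2-KO+GFP cells, where it ranked 145 from the bottom of 12483 genes. The log2 ratio in iMK2-KO+MK2 cells was -0.24 (-0.53 to 0.05). Between the lines, the log2 ratio was -0.60 (-0.92 to -0.30) untreated, and after IL-1α Fos was 2.74-fold lower in iMK2-KO+GFP cells (-1.45, -1.89 to -1.05).

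Fosb (ENSMUSG00000003545.4), a close relative of Fos that is also induced early after stimulation, was near the limit of detection. It was at 6 and 3 in UT and IL-1α-treated iMK2-KO+GFP cells and at 26 and 20 in iMK2-KO+MK2 cells. The iMK2-KO+GFP values were lower in both states, by 3.86-fold untreated (log2 -1.95, -3.69 to -0.80) and by 5.25-fold after IL-1α (-2.39, -5.13 to -0.98). Neither response to IL-1α could be told from 0 at this depth (-0.81, -3.63 to 1.23, and -0.36, -1.30 to 0.52).

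Fosl1 (ENSMUSG00000024912.7) encodes FRA-1, which lacks the transactivation domain of FOS and is known from invasive and inflammatory cells. Its normalized counts were 38 and 48 in UT and IL-1α-treated iMK2-KO+GFP cells and 290 and 292 in iMK2-KO+MK2 cells. The level thus followed the line and hardly the treatment. Fosl1 was 7.46-fold lower in UT iMK2-KO+GFP cells (log2 -2.90, -3.46 to -2.44), ranking 177 from the bottom of 12483 genes, and 5.98-fold lower after IL-1α (-2.58, -3.08 to -2.16). The log2 ratio of IL-1α against UT was 0.33 (-0.31 to 0.99) in iMK2-KO+GFP cells and 0.01 (-0.23 to 0.25) in iMK2-KO+MK2 cells. Zbtb46, with the values given above, was also lower in the line without MK2. The 10 macrophage markers went both ways between UT lines, 4 above 0 and 6 below with a median log2 ratio of -0.05, from -1.37 for the receptor Mertk (421 against 1093) to 0.90 for the LPS co-receptor Cd14 (3652 against 1962). After IL-1α, 5 were above and 5 below 0, with Mertk at -1.68 and Cd14 at 1.84. The part of these markers in the Fosl1 difference was not tested. Ccdc85b, which overlaps Fosl1, was at 464, 399, 531 and 499 in the order iMK2-KO+GFP UT and IL-1α, then iMK2-KO+MK2 UT and IL-1α.

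Fosl2 (ENSMUSG00000029135.11), which encodes FRA-2, had its highest value in the same library as the JUN genes. It was at 583 and 1130 in UT and IL-1α-treated iMK2-KO+GFP cells and at 796 in both iMK2-KO+MK2 libraries. The response was 0.95 (0.81 to 1.10), or 1.94-fold, in iMK2-KO+GFP cells, and 0.00 (-0.14 to 0.14) in iMK2-KO+MK2 cells. Between the lines the log2 ratio was -0.45 (-0.61 to -0.29) untreated and 0.50 (0.37 to 0.64) after IL-1α.

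The promoters of Fos and Fosl2 are shown because these related genes had log2 responses of opposite sign in iMK2-KO+GFP cells. They are the 250 bases before the transcription start in RefSeq (GRCm38.p6), at chr12:85473640-85473889 on the plus strand for Fos and chr5:32136222-32136471 on the plus strand for Fosl2. Capitals mark matches to a κB site, the sequence bound by NF-κB, searched on both strands from 250 bases before to 50 after the start.
Fos: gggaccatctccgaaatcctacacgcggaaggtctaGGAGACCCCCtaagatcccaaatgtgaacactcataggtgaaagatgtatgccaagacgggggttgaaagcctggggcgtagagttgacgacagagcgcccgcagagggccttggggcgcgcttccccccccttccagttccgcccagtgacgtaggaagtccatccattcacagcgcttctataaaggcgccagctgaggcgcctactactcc
Fosl2: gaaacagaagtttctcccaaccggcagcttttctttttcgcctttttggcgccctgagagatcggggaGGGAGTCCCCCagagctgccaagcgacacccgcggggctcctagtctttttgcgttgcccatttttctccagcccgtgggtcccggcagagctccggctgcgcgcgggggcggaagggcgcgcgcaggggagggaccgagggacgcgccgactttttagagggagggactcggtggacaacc
The match lay at -214 to -205 in Fos and at -182 to -172 in Fosl2, where matches on both strands overlapped.

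Atf3 (ENSMUSG00000026628.14) encodes a stress-induced factor that often represses inflammatory genes in macrophages. It was at 2347 and 5408 in UT and IL-1α-treated iMK2-KO+GFP cells, and at 3056 and 3191 in iMK2-KO+MK2 cells. As for Junb, the treated iMK2-KO+GFP library stood above the others. Atf3 rose by 1.20 on the log2 scale (1.13 to 1.27), or 2.30-fold, in iMK2-KO+GFP cells, against 0.06 (-0.01 to 0.13) in iMK2-KO+MK2 cells. Between the lines, the ratio went from -0.38 (-0.46 to -0.30) untreated to 0.76 (0.70 to 0.82) after IL-1α. Batf (ENSMUSG00000034266.7), best known from lymphocytes and dendritic cells, where it pairs with JUN proteins and IRF4 or IRF8, was at 0 in all 4 libraries, which allows up to 3 counts in each.

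Maff (ENSMUSG00000042622.15) encodes a small MAF protein, a zipper factor with no transactivation domain that pairs with CNC factors such as NRF2 and BACH1 as well as with FOS. Its normalized counts were 26 and 318 in UT and IL-1α-treated iMK2-KO+GFP cells, and 40 and 54 in iMK2-KO+MK2 cells. Only the treated iMK2-KO+GFP library was high. Maff rose 11.8-fold there (log2 3.56, counting interval 3.03 to 4.25), the largest response of the family, and ranked 31 from the top of 12483 genes. The log2 ratio in iMK2-KO+MK2 cells was 0.42 (-0.18 to 1.06), which ranked 560. The UT lines differed by -0.60 (-1.39 to 0.13), and after IL-1α Maff was 5.80-fold higher in iMK2-KO+GFP cells (2.54, 2.14 to 3.00).

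RefSeq lists 3 promoters for Maff (GRCm38.p6, plus strand of chromosome 15), and those with a match are shown because Maff had the largest response. The upstream stretch at chr15:79347270-79347519 held the cAMP response element (CRE) TGACGTCA at -29 to -22, and the stretch at chr15:79348152-79348401 held a κB site at -70 to -61, both in capitals.
Maff CRE promoter: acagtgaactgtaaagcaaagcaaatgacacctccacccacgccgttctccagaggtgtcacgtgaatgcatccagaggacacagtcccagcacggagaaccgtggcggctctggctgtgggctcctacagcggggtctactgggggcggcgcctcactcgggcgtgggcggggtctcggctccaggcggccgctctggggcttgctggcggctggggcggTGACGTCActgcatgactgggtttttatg
Maff κB promoter: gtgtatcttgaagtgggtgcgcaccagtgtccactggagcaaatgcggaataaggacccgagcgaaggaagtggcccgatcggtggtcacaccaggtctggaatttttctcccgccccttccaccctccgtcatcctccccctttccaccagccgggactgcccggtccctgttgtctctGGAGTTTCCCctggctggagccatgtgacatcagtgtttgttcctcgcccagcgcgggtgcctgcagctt
Of the 9 members with a RefSeq entry, which leaves out Fosl1, 4 held a κB site (Fos, Fosb, Fosl2 and Maff), against 4.51% of 32851 mouse promoters of the same length. The windows of these genes with the match had a GC content of 58.7% to 68.3%, beside a mean of 53.8% over all promoters. The AP-1 site (TRE) TGACTCA was in none of the 9 and in 5.2% of all promoters. The CRE TGACGTCA was in Maff only and in 1.79% of all promoters. TRE and CRE were searched as exact sequences, so variants of them were not counted. Similar stretches did occur in the windows, such as tgacgta in Fos, tgacatca in Jun and ttacgtca in Atf3. The CArG box, bound by serum response factor, was in none of the 9 and in 1.63% of all promoters. Bases outside the searched windows were not read. A site there, such as a CArG box of Fos, would have been missed. These are matches of letters and not measured binding sites, and Maff was searched over 3 windows.

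**Figure D2:**
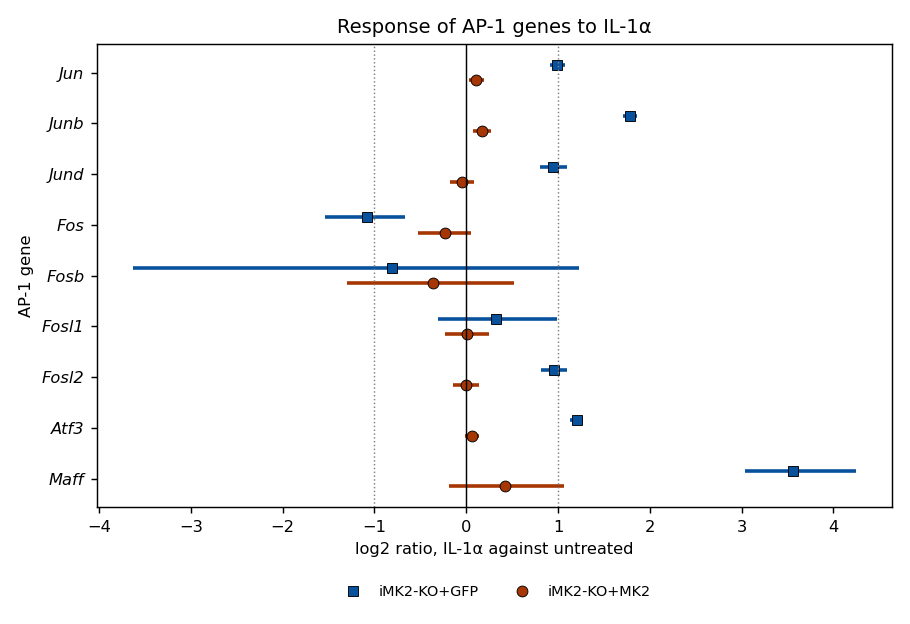
Log2 ratio of IL-1α against untreated for the 9 AP-1 genes in iMK2-KO+GFP cells (squares) and iMK2-KO+MK2 cells (circles), with 95% counting intervals as bars and dotted lines at 2-fold. In iMK2-KO+GFP cells the ratios ran from -1.08 (Fos) to 3.56 (Maff), and in iMK2-KO+MK2 cells from -0.36 (Fosb) to 0.42 (Maff).

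The responses of the lines were then set side by side. The log2 response in iMK2-KO+GFP cells exceeded that in iMK2-KO+MK2 cells by 3.14 for Maff (counting interval 2.32 to 3.96), 1.61 for Junb (1.49 to 1.74) and 1.14 for Atf3 (1.04 to 1.24). For Jund, Fosl2 and Jun the excess was 0.99, 0.95 and 0.88, with intervals between 0.75 and 1.19. Fos had the opposite sign, at -0.85 (-1.35 to -0.34). The intervals of Fosl1 (0.32, -0.33 to 0.97) and Fosb (-0.44, -2.50 to 1.61) included 0. With 1 library per condition, these differences between lines were not tested against the spread between cultures. Mapkapk2 itself, given above, was also higher after IL-1α in iMK2-KO+GFP cells.

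**Figure D3:**
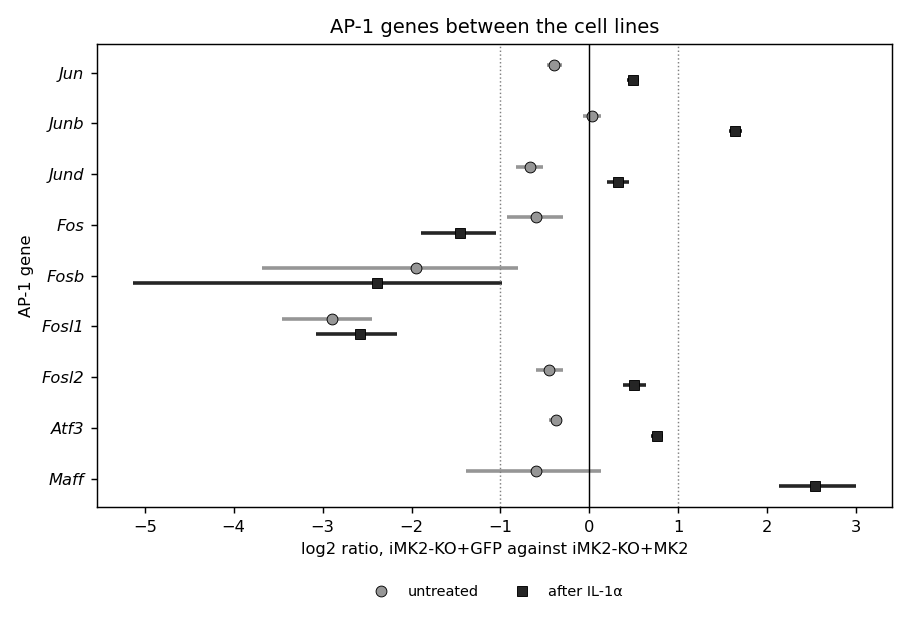
Log2 ratio of iMK2-KO+GFP against iMK2-KO+MK2 cells for the 9 AP-1 genes, untreated (circles) and after IL-1α (squares), with 95% counting intervals as bars and dotted lines at 2-fold. Untreated, 8 of the 9 ratios lay below 0, where the intervals of Maff and Junb included 0. After IL-1α 6 lay above 0, while Fosl1 (-2.90 and -2.58), Fosb and Fos stayed below 0. The medians over all tested genes were 0.02 untreated and 0.03 after IL-1α.

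Levels of different genes were compared per kb of exon, with exon lengths from GENCODE M21. Atf3 led in UT iMK2-KO+GFP cells with 1089.6 normalized counts per kb, before Junb (732), Jun (611) and Jund (359). Fos (60.8) and Fosl2 (60.2) were next and nearly equal, followed by Fosl1 (18.7), Maff (10.0) and Fosb (0.961). After IL-1α, Junb (2518) and Atf3 (2511) were level at the top, and Maff (123 per kb) stood beside Fosl2 (117) and above Fos (28.5). In iMK2-KO+MK2 cells the order began with Atf3, Jun, Junb and Jund in both states. Fosl1 (143 UT and 144 after IL-1α) was the FOS gene with the most counts per kb. By normalized count Fosl2 (796 in both states) was above Fosl1 there (290 and 292). Lengths were 9680 bases for Fosl2 and 2033 for Fosl1, as unions of all annotated exons. There is no spread between replicates against which neighbours in the order per kb could be judged.

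The make-up of the FOS pool differed between the lines. Per kb, the 4 FOS genes summed to 141 in UT and 169 in IL-1α-treated iMK2-KO+GFP cells, and to 322 and 308 in iMK2-KO+MK2 cells. Fosl1 made up 13.3% and 13.9% of this sum in iMK2-KO+GFP cells (UT and IL-1α) and 44.3% and 46.7% in iMK2-KO+MK2 cells. Fosl2 went from 42.8% to 68.9% in iMK2-KO+GFP cells with IL-1α, and Fos from 43.2% to 16.8%. The corresponding shares in iMK2-KO+MK2 cells were 25.6% and 26.7% for Fosl2 and 28.8% and 25.6% for Fos. By normalized count and without division by length, the Fosl1 share was 4.94% (exact 95% interval 3.52 to 6.71) in UT iMK2-KO+GFP cells. In UT iMK2-KO+MK2 cells it was 21.8% (19.6 to 24.1). Fosl2 held the largest share by normalized count in every library, with 75.7% in UT iMK2-KO+GFP and 59.8% in UT iMK2-KO+MK2 cells. The FOS sums by normalized count were 770 and 1248 in iMK2-KO+GFP cells (UT and IL-1α) and 1330 and 1293 in iMK2-KO+MK2 cells. Their log2 ratio between the lines was -0.79 (-0.92 to -0.66) untreated and -0.05 (-0.16 to 0.06) after IL-1α. The lower FOS sum after IL-1α thus depended on division by length.

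The JUN pool was larger than the FOS pool in every library. Per kb, the 3 JUN genes summed to 1702 in UT and 4428 in IL-1α-treated iMK2-KO+GFP cells, against 2092 and 2227 in iMK2-KO+MK2 cells. The ratio of JUN to FOS transcripts per kb was 12.1 and 26.2 in iMK2-KO+GFP cells (UT and IL-1α) and 6.50 and 7.24 in iMK2-KO+MK2 cells. Summed normalized counts of the JUN genes rose by 1.36 on the log2 scale (1.30 to 1.41) with IL-1α in iMK2-KO+GFP cells, and their log2 ratio was 0.10 (0.05 to 0.16) in iMK2-KO+MK2 cells. By normalized count, Junb made up 39.8% (38.3 to 41.3) and 53.5% (52.6 to 54.4) of the JUN sum in UT and IL-1α-treated iMK2-KO+GFP cells. The Junb share in iMK2-KO+MK2 cells was 32.0% (30.7 to 33.3) and 33.5% (32.2 to 34.7).

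**Figure D4:**
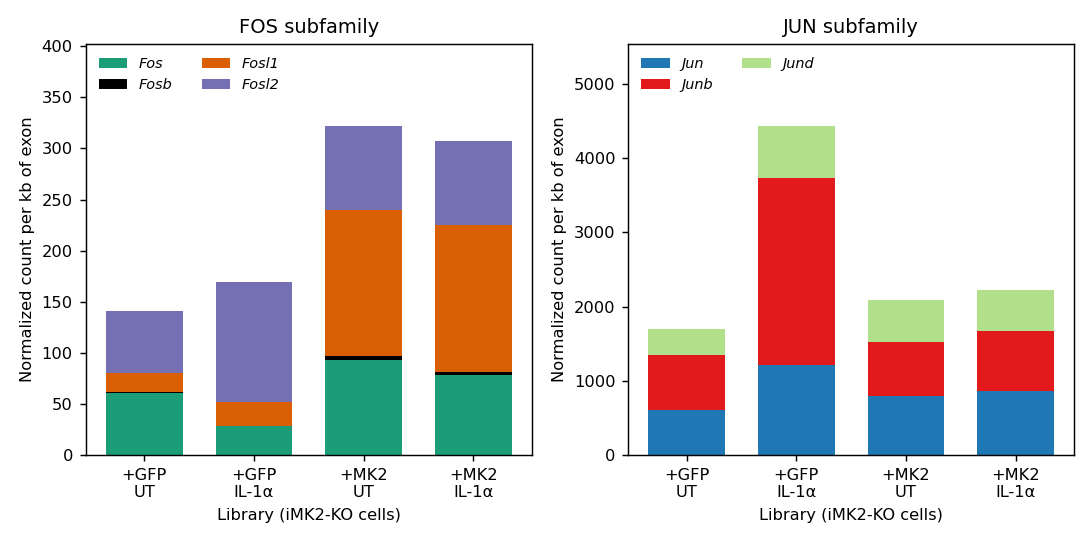
Normalized counts per kb of exon, stacked by gene, for the FOS subfamily (left) and the JUN subfamily (right) in the 4 libraries, with separate vertical axes that start at 0. Per kb, the FOS sum was lower in iMK2-KO+GFP cells (141 and 169) than in iMK2-KO+MK2 cells (322 and 308), with a small Fosl1 part. By normalized count, the FOS sums of the lines were close after IL-1α (1248 and 1293). The JUN sum per kb was highest after IL-1α in iMK2-KO+GFP cells (4428).

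Other leucine zipper factors that can pair with AP-1 proteins or compete for their sites were examined as a list of 23 genes, of which 20 reached the minimum mean. In UT cells 5 of the 20 were at least 2-fold lower in iMK2-KO+GFP cells and 0 were higher, beside 5.26% and 3.51% of all tested genes. The median log2 ratio of the 20 was -0.12 beside 0.02 over all tested genes. Maf, a large MAF factor of mature macrophages, was at 34 and 25 in iMK2-KO+GFP cells (UT and IL-1α) and at 1546 and 1298 in iMK2-KO+MK2 cells (log2 ratio -5.47 untreated, interval -6.04 to -5.02). Cebpa, a myeloid lineage factor, was at 19 and 20 against 431 and 415 (-4.43 untreated). Jdp2, a repressor that pairs with JUN, was at 109 and 123 against 558 and 537 (-2.35), and Atf5, a stress factor, at 184 and 217 against 651 and 627 (-1.82). These genes thus followed the line, as Fosl1 did. After IL-1α there were again 5 lower and 0 higher, beside 5.57% and 4.16% of all tested genes, with a median of -0.13.

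With IL-1α, 1 of the 20 factors rose in iMK2-KO+GFP cells, beside 2.25% of all tested genes. None reached 2-fold in iMK2-KO+MK2 cells, where 0.889% of all tested genes rose and 1.03% fell. The medians of the 20 were 0.14 and 0.06. The gene that rose was Nfe2l2, which encodes the small MAF partner NRF2, at 4078 and 8598 in iMK2-KO+GFP cells and 4485 and 4777 in iMK2-KO+MK2 cells (log2 1.08, 1.02 to 1.13, and 0.09, 0.03 to 0.15). Cebpd and Cebpb, inducible C/EBP factors, had log2 ratios of 0.81 (0.52 to 1.11) and 0.61 (0.52 to 0.70) in iMK2-KO+GFP cells. In iMK2-KO+MK2 cells the values farthest from 0 were those of Ddit3 (0.45, 0.13 to 0.77) and Atf2 (0.34, 0.25 to 0.44).

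All 14 MAP kinase genes examined on the routes to AP-1 were at the minimum mean. With IL-1α 1 of them rose in both lines, beside 2.25% of all tested genes in iMK2-KO+GFP and 0.889% in iMK2-KO+MK2 cells. This was Map3k8, which encodes the ERK pathway kinase TPL2, at 150 and 487 in iMK2-KO+GFP cells and 85 and 201 in iMK2-KO+MK2 cells. Its log2 ratio was 1.69 (1.43 to 1.97) in iMK2-KO+GFP cells and 1.23 (0.87 to 1.62) in iMK2-KO+MK2 cells. After IL-1α, Map3k8 was also the only one of the 14 that was 2-fold higher in iMK2-KO+GFP cells (1.27, 1.04 to 1.52). The share of all tested genes was 4.16%. None of the 14 was 2-fold apart in UT cells, where 3.51% of all tested genes were higher and 5.26% lower in iMK2-KO+GFP cells. Map3k1, a kinase upstream of JNK, had a log2 ratio of -0.67 (-0.76 to -0.57) with IL-1α in iMK2-KO+GFP cells. The medians of the list were 0.08 between UT lines, 0.11 between lines after IL-1α, 0.03 for IL-1α in iMK2-KO+GFP cells and 0.00 in iMK2-KO+MK2 cells.

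The regulators of Fos and Jun transcription and turnover were a list of 10 genes that includes Srf and its cofactors Elk1, Elk3 and Elk4. None of them was at 2-fold in any of the 4 comparisons. Between UT lines 3.51% of all tested genes were higher and 5.26% lower in iMK2-KO+GFP cells, and after IL-1α 4.16% and 5.57%. With IL-1α 2.25% rose and 1.59% fell in iMK2-KO+GFP cells, and 0.889% and 1.03% in iMK2-KO+MK2 cells. At these shares, few or none of 10 genes would be called. In this list the value farthest from 0 was that of Elk3. It was at 449 and 443 in iMK2-KO+GFP cells and 808 and 857 in iMK2-KO+MK2 cells (log2 -0.85 untreated and -0.95 after IL-1α). Srf, which drives Fos through the CArG box, was at 1300 and 1521 against 1139 and 1171. The promoter window searched in Fos held no CArG box, and bases outside that window were not searched. Of 6 binding partners of AP-1, 1 was 2-fold higher in UT iMK2-KO+GFP cells, beside 3.51% of all tested genes. This was Irf4, which joins BATF-JUN pairs on DNA, at 116 and 99 against 43 and 51 (1.41, 0.92 to 1.97). No other partner reached 2-fold in any comparison, beside the shares of all tested genes given above. The macrophage factor Spi1 was between 4551 and 5524 in all libraries.

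Known target genes of AP-1 were taken as a list of 18, of which 13 reached the minimum mean. With IL-1α, 3 of the 13 rose in iMK2-KO+GFP cells, beside 2.25% of all tested genes. None reached 2-fold in iMK2-KO+MK2 cells, where 0.889% of all tested genes rose and 1.03% fell. The medians of the 13 were 0.25 and -0.01. Tnf, a cytokine gene, was at 332 and 10784 in iMK2-KO+GFP cells and 315 and 608 in iMK2-KO+MK2 cells, log2 responses of 5.02 (4.86 to 5.18) and 0.95 (0.75 to 1.15). Ptgs2, which encodes cyclooxygenase-2, was at 415 and 1544 against 326 and 381 (1.89 and 0.22). Both genes, like Maff and Junb, were highest in the treated iMK2-KO+GFP library.

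Between UT lines, 4 of the 13 targets were lower and 1 higher in iMK2-KO+GFP cells, beside 5.26% and 3.51% of all tested genes. After IL-1α 4 were lower and 3 higher, beside 5.57% and 4.16% of all tested genes. The medians of the 13 were -0.35 untreated and -0.46 after IL-1α. Hbegf, an EGF receptor ligand, was at 19 and 30 in iMK2-KO+GFP cells and 78 and 74 in iMK2-KO+MK2 cells (log2 -1.98 untreated). Ccl2, a monocyte chemoattractant, was at 1216 and 1773 against 3868 and 3599 (-1.67), and Hmox1, which encodes the heme-degrading enzyme, at 2726 and 2641 against 7214 and 7289 (-1.40). In these genes, as in Fosl1, both iMK2-KO+GFP values were below both iMK2-KO+MK2 values. Most of these targets are also regulated by other factors, and the part of AP-1 in their levels was not measured.

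The genes whose pattern over the 4 libraries was most like that of a member were sought among 10893 genes, by the root mean square distance of centred log2 values. For Junb they were Tnfaip2 (distance 0.058), Nfkb2 (0.060) and Slc31a2 (0.090). Nfkb2, the NF-κB subunit gene of the non-canonical pathway, was at 541, 1787, 541 and 545 in the order iMK2-KO+GFP UT and IL-1α, then iMK2-KO+MK2 UT and IL-1α. For Maff the nearest were Socs3 (0.153), Cxcl10 (0.255) and Zc3h12c (0.30), with Socs3, a feedback inhibitor of cytokine signaling, at 110, 1167, 182 and 185. For Atf3 they were Zswim4 (0.023), Gm28539 (0.070) and Lcp2 (0.081).

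The lower members had other neighbours in this measure. Nearest to Fosl1 were Sh2d5 (0.097), Chac1 (0.101) and Bcl2a1b (0.126). Chac1, a stress-induced gene of glutathione breakdown, was at 33, 49, 253 and 251 in the same order. Nearest to Fos were Lat (0.088), Rgs2 (0.107) and Zfp973 (0.128). Rgs2, a regulator of G protein signaling, was at 3713, 1824, 4903 and 4977. Its lowest value was in IL-1α-treated iMK2-KO+GFP cells, which largely follows from its choice by likeness to Fos. With 4 libraries, such likeness describes the sizes of the differences between these libraries and no more.

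Positions of the genes are given as in the table. The labels name GRCm38, but of 52080 gene IDs that GENCODE M21 (GRCm38) also holds, 1494 had the same start and end, so the build of these positions is not certain. Fos lay on chromosome 12 from 85520664 to 85524047 and Batf on the same chromosome from 85733443 to 85755861. Of the 7 neighbours of Batf within 100 kb, Jdp2, at 46791 bases, was the only one at the minimum mean. Jund (71151599 to 71153265) and Junb (85701113 to 85705347) shared chromosome 8. Jun was on chromosome 4 (94937271 to 94940459), Fosb on chromosome 7 (19036621 to 19043976), Fosl2 on chromosome 5 (32293145 to 32315186) and Atf3 on chromosome 1 (190902493 to 190950236). Fosl1 was on chromosome 19 from 5497575 to 5505974. Of its 25 neighbours within 100 kb, 14 reached the minimum mean. None of the 14 was 2-fold apart between UT lines (median log2 ratio 0.02, from -0.44 to 0.31), where Fosl1 was at -2.90. In that comparison 3.51% of all tested genes were higher and 5.26% lower in iMK2-KO+GFP cells. After IL-1α, 2 of the 14 were 2-fold lower in iMK2-KO+GFP cells, beside 5.57% of all tested genes lower and 4.16% higher. These were the low genes Gm31166 (4 against 20) and Nscme3l (10 against 22). Around Junb, 12 neighbours had log2 ratios of -0.23 to 0.08 with IL-1α in iMK2-KO+GFP cells. Around Jund, 13 neighbours ran from -2.13 to 2.03 in the same comparison. Of these, 2 reached 2-fold, beside 2.25% of all tested genes that rose and 1.59% that fell. The highest neighbour was Gdf15, at 433 and 1775 in UT and IL-1α-treated iMK2-KO+GFP cells. Maff, on chromosome 15 from 79230821 to 79243276, had 5 such neighbours with a median of 0.16. Among them Gm49486, at 5 and 12 normalized counts, reached 2-fold, beside the same shares of all tested genes.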

How the data were processed

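RNA of 4 cultures was sequenced, 1 library per condition. The labels describe poly(A) selection and a stranded kit, whereas the paper's methods give ribo-depletion. The authors deposited 1 table of 55356 genes with a score per gene and library, which are DESeq2 normalized counts rounded to whole numbers. DESeq2 and GRCm38 are named in the submitters' processing notes without a version, and the table's column names carry the name of the output file of Salmon. Other details of mapping are not given in the sources used here. Values were used as deposited and no count model was fitted, although the comparisons had been planned for either raw or normalized counts. Columns were matched to libraries by name.

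A pseudocount of 1 was added before ratios were taken on the log2 scale, and genes below a mean of 10 were left out, in Python 3.11.15 with pandas 2.3.3, numpy 2.4.6 and scipy 1.17.1, and a difference was called at 2-fold. Adding the pseudocount understates ratios of low genes. Counting intervals are 95% Clopper-Pearson intervals of the share of both values, and Wald intervals for differences of responses. From the spacing of low values, 1 read was estimated, with some uncertainty, to be worth 0.76 to 0.838 normalized counts, and intervals used the values as deposited, which by that estimate are fewer than the reads. Reads carry no molecular identifiers, and intervals cover counting error only. Scripts were tested on simulated data.

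All 10 members were named, and of each other list at most 4 genes per comparison with the largest absolute log2 ratio, if 1 library reached 50, plus the 3 nearest patterns of members that varied 2-fold. Overlapping and neighbouring genes, and the markers Mertk, Cd14 and Zbtb46, were named after their values were seen. Ddit3 has more than 1 gene ID, and the one with counts was used. Some genes that this rule names are not reported here. The members and lists were chosen with earlier results of these data known. Promoter sequences came from RefSeq (GRCm38.p6). Alternatives were other scalings, pseudocounts, minimum means and folds.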

Additional observations from a re-analysis of the deposited data

Results flagged for a closer look

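The responses to IL-1α had opposite signs in the lines for 3 genes, with a counting interval that left out 0 in at least 1 line for the AP-1 member and in both lines for the others. With 1 library per condition, none of these differences was tested. Jund had a log2 response of 0.95 in iMK2-KO+GFP cells and -0.0445 in iMK2-KO+MK2 cells, where the latter could not be told from 0 by counting error. Mapk9, which encodes the kinase JNK2, had -0.13 and 0.13, and Ccl2 had 0.54 and -0.10, in the same order.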

How the results depend on the processing

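Among the counts of members called and the differences of responses, 117 values under alternatives kept their verdict and 4 moved, and among the log2 ratios of single members 177 did and 3 moved. At 1.5-fold in place of 2-fold, 5 members in place of 2 were lower in UT iMK2-KO+GFP cells (10.3% of all tested genes), and with IL-1α in these cells 6 in place of 3 were higher (4.7%) and 2 in place of 1 lower (4.29%). With a minimum mean of 50, which leaves out Fosb, 1 member was lower in UT iMK2-KO+GFP cells (3.22%). Among counts that kept their verdict, 2 in place of 3 members were then lower in iMK2-KO+GFP than in iMK2-KO+MK2 cells after IL-1α (3.49%). At 1.5-fold, 3 in place of 2 were higher between the lines after IL-1α (8.41%). Of the 36 log2 ratios of members, 2 changed sign, Junb between UT lines and Fosl1 with IL-1α in iMK2-KO+MK2 cells (0.01 to -0.0016). Scaling to Gapdh moved the median of all tested genes from 0.03 to -0.07 between the lines after IL-1α, and the log2 ratios of Jun, Junb and Atf3 to 0.39, 1.54 and 0.66 there. Fosb rests on 3 to 26 counts and Batf on none. No paired analysis was possible because each condition has 1 library, and no library could be left out.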
